A study of Mus musculus with 3 samples.

Results

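Transcripts of the suppressor of cytokine signalling (SOCS) family were examined in the mouse macrophage line RAW 264.7, which had been stimulated for 5 h with 100 ng/mL of LPS, the bacterial lipopolysaccharide sensed by TLR4. The family was taken by mouse gene symbol and holds 8 genes, Cish and Socs1 to Socs7, of the 54331 features in the deposited table, and all 8 were found. There were 3 libraries. The control library, labelled wild-type in genotype, came from cells with a control shRNA. The other 2 came from cells with shRNAs against GIV (Girdin, gene Ccdc88a), 1 shRNA each, and are labelled GIV-depleted. A label field gives the line's number with digits transposed. All 3 libraries were LPS-treated, and the background strain given for all of them is BALB/c, male. The labels do not say whether the cells were clones or pools, and the control is a single library, so no control value has a replicate error.

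SOCS proteins are feedback inhibitors of cytokine receptors that signal through JAK kinases and STAT transcription factors. Each has an SH2 domain, which binds phosphorylated tyrosine on a receptor or kinase, and a SOCS box, which recruits elongins B and C and cullin 5 to a ubiquitin ligase. Several family genes are themselves STAT targets. In macrophages SOCS1 is known for restraining interferon and LPS responses, SOCS3 for restraining signalling by the IL-6 receptor subunit gp130, and CIS, the product of Cish, is known as an inhibitor induced through STAT5.

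Ccdc88a, the targeted gene, had 2580.4 normalized counts with the control shRNA, 1734 in the shRNA 1-labelled library and 2561 in the shRNA 2-labelled library. The shRNA 2-labelled library therefore held Ccdc88a mRNA at about the control's level, so this mRNA goes against the label, and every direction given for it is that of a library so labelled. Column totals lay between 47349097 and 49756670 normalized counts, and the commonest lowest value of a library lay between 0.931 and 1.112, which is roughly what 1 read is worth. All 10 macrophage markers looked up passed the filter on low values, and 7 of them were lower in both GIV-labelled libraries than in the control. Of all features tested, 35.2% were lower in both. The summed macrophage markers were 453092 in the control against 343669 and 366264. Most of that difference was in Lyz2, with 199781, 121997 and 138145. Fcgr1 was also lower in both, with 48715, 32239 and 33167, as were Cd68, Csf1r, Mertk, Mrc1 and Spi1. For Adgre1, Cd14 and Itgam the GIV-labelled libraries lay on opposite sides of the control. Whether these marker differences bear on the family was not tested. Markers of fibroblasts and epithelium summed to 3.85 to 7.78 per library, and those of neutrophils and mast cells to 45.6 to 77.4. Those of T and B cells summed to 13.6 to 41.1, highest in the shRNA 2-labelled library. There Ms4a1 stood at 20.2 and Cd4 at 9.39, while Cd3e and Trac were at 0 in every library. Dendritic cell markers summed to 1122 to 1285, with Flt3 and Siglech at 0. Most of that sum was Itgax, with 725 in the control, 970 in the shRNA 1-labelled library and 764 in the shRNA 2-labelled one. Xcr1 had 383, 278 and 320 in the same order.

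Promoter windows of 300 bases, from 250 before to 50 after the RefSeq start of transcription (GRCm38.p6), were at hand for 4 members, Cish, Socs1, Socs3 and Socs4. The windows of 3 of them are printed because these members include the highest and the lowest against the control and the most abundant one. Capitals mark matches on either strand to the STAT motif TTCNNNGAA or to the interferon regulatory factor (IRF) motif, which is GAAA, any 2 bases and GAAA again.
Cish, chr9:107296409-107296708, plus strand: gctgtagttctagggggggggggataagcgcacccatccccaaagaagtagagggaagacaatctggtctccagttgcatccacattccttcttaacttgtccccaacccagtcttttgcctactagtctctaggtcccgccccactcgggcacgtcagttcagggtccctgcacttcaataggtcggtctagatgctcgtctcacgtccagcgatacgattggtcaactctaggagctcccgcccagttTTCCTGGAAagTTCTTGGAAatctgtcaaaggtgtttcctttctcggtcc
Socs1, chr16:10785487-10785786, minus strand: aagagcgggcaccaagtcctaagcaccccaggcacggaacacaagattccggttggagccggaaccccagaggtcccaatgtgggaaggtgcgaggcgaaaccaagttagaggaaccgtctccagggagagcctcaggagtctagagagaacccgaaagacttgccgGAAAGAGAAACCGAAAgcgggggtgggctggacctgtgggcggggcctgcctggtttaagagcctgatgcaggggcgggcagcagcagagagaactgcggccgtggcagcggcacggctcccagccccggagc
Socs3, chr11:117969317-117969616, minus strand: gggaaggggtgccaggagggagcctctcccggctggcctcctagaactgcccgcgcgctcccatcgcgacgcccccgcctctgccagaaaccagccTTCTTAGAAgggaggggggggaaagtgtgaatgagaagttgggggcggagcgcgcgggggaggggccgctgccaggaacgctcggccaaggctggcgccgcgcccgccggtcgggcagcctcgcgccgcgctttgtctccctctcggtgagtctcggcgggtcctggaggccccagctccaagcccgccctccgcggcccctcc
The Cish window held 2 STAT motifs, at bases 251 to 259 and 262 to 270 counted from its 5′ end, so the first begins at the RefSeq start. Of all 32851 promoter windows in the same table, 8.30% held at least 1 STAT motif and 0.457% held 2 or more. The Socs1 window held no STAT motif and 2 IRF motifs, at bases 168 to 177 and 174 to 183, which overlap each other and no other motif. Of all windows, 3.44% held an IRF motif and 0.225% held 2 or more. The Socs3 window held 1 STAT motif at bases 97 to 105. The kappaB consensus, searched on both strands and held by 4.51% of windows, was not in any of the 4 windows, and the Socs4 window held none of the 3 motifs. A match in letters is no evidence of a bound site. The Cish and Socs3 windows lie wholly within the GENCODE spans given below for these genes. Their RefSeq starts are thus downstream of the outermost GENCODE starts, and the windows are not all upstream sequence.

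Socs3 was by far the most abundant member when values were divided by the length of its annotated exons. It stood at 15509 normalized counts per kb in the control, 17197 in the shRNA 1-labelled library and 10157 in the shRNA 2-labelled library. These levels were 92.7%, 93.0% and 90.4% of the summed per-kb level of the family, and they lay at percentiles 98.7, 98.8 and 98.2 of the features tested. Socs7 came second in every library, with 349, 396 and 312 normalized counts per kb. Socs2 was last throughout, with 1.04, 1.81 and 0.617 per kb.

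The members in between kept no fixed order. Socs4 stood at 307 normalized counts per kb in the control, 219 in the shRNA 1-labelled library and 245 in the shRNA 2-labelled one. Socs5 stood at 206, 289 and 224 in the same order, below Socs4 in the control and in the shRNA 2-labelled library and above it in the shRNA 1-labelled library. Socs6 stood at 135, 164 and 129. Socs1 and Cish, at the low end, exchanged places. Socs1 was at 177 per kb in the control, and at 99.8 and 81.1 in the GIV-labelled libraries. Cish was at 38.2 in the control, and at 119 and 89.6 in the others, where the ranges of both genes overlapped. With the longest transcript as the length, Socs6 stood above Socs1 in the control as well (254 against 177 per kb). The order around Socs4 turned too, with Socs6 at 308 against 219 for Socs4 in the shRNA 1-labelled library and Socs5 at 309 against 245 for Socs4 in the shRNA 2-labelled one. By that length Cish stood at 162 and 122 against 99.8 and 81.1 for Socs1 in the GIV-labelled libraries. The principal transcript of Cish is shorter still, at 2850 bases against 6419 bases of annotated exons. Levels by that length are not given, so the place of Cish among the members holds for the 2 lengths used.

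**Figure D1:**
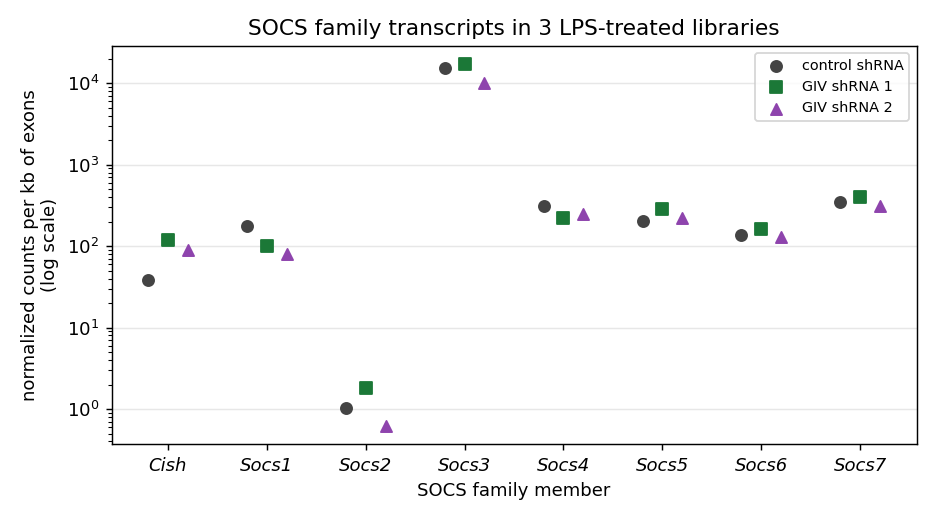
Level of each SOCS family member in the 3 libraries, as normalized counts per kb of annotated exons on a log axis, 1 point per library. Socs3 lies between 10157 and 17197 in all 3 libraries, and the order of Cish and Socs1 differs between the control and the other libraries.

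Setting the GIV-labelled libraries against the control asks how these inhibitors differ when an shRNA targets GIV. Cish was the member with the largest difference, higher in both libraries, and Socs1 had the largest difference in the other direction. No member passed an adjusted p of 0.05 in limma, and neither did any of the 13877 features whose mean value reached 10 (0.0% called), the lowest adjusted p being 0.055. At an unadjusted p under 0.05 limma had 963 features, Cish and Socs1 among them. The members therefore have no called change, and their values are given as measured. Lower mRNA in bulk samples cannot be told apart from fewer cells that make it. An exact permutation over the 3 libraries has 3 arrangements and cannot give a p below 0.333.

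Cish (ENSMUSG00000032578.7, chromosome 9, 107296026 to 107302784, plus strand, GRCm38) encodes CIS, which binds receptors that activate STAT5. It stood at 245 normalized counts in the control library, 762 in the shRNA 1-labelled library and 575 in the shRNA 2-labelled library. Both GIV-labelled libraries lay above the control, by 1.63 and 1.23 on the log2(value + 1) scale used for every difference below. Their mean was 669 ± 133 (SD, n = 2) normalized counts. The mean log2 difference was 1.43 (SE 0.26, 95% interval 0.70 to 2.16), a 2.69-fold ratio, with an unadjusted p of 0.0056 and an adjusted p of 0.42 in limma. Cish was 1 of the 627 features (4.52%) that were higher at an unadjusted p under 0.05. A difference at least as high was seen in 2.13% of features. Cish overlaps 2 annotated genes on the opposite strand, and these had at most 3.30 normalized counts in any library.

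Socs1 (ENSMUSG00000038037.5, chromosome 16, 10782240 to 10785536, minus strand) encodes an inhibitor that blocks JAK kinases directly and is an interferon target. It stood at 514 normalized counts in the control library, 290 in the shRNA 1-labelled library and 236 in the shRNA 2-labelled library. The control was the highest of the 3. The log2 differences were -0.82 and -1.12, and the GIV-labelled libraries averaged 263 ± 38.4 (SD, n = 2) normalized counts. The mean log2 difference was -0.97 (SE 0.26, 95% interval -1.68 to -0.26), a ratio of 0.51, with an unadjusted p of 0.019 and an adjusted p of 0.61 in limma. Socs1 was 1 of the 336 features (2.42%) that were lower at an unadjusted p under 0.05. No annotated gene overlaps it.

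Socs3 (ENSMUSG00000053113.3, chromosome 11, 117966079 to 117970047, minus strand), the inhibitor of gp130 signalling, shares with SOCS1 a short region that blocks the kinase. It stood at 44836 normalized counts in the control library, 49717 in the shRNA 1-labelled library and 29363 in the shRNA 2-labelled library. The shRNA 1-labelled library was slightly above the control and the shRNA 2-labelled one below it, with log2 differences of 0.15 and -0.61. Their mean of -0.23 (SE 0.35, 95% interval -1.21 to 0.75) was smaller than its standard error, with an adjusted p of 0.91 in limma. The library with control-level Ccdc88a was the low one, which rests on a single library and was not tested.

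Socs2 (ENSMUSG00000020027.18, chromosome 10, 95385362 to 95417180, minus strand) encodes a regulator of growth hormone receptor signalling and is the closest relative of Cish. It was near the detection floor, with 9.93 normalized counts in the control, 17.3 in the shRNA 1-labelled library and 5.88 in the shRNA 2-labelled library. The GIV-labelled libraries lay on either side of the control, by 0.74 and -0.67. Its mean difference was 0.04 with a standard error of 0.84, so the GIV-labelled libraries differed from each other by more than their mean differed from the control, and its sign turned under quantile normalization. The growth hormone receptor Ghr was itself under the filter, with 0.938, 11.4 and 7.60.

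Socs4 and Socs5, a closely related pair that acts on the EGF receptor, lay on opposite sides of the control. Socs4 (ENSMUSG00000048379.9, chromosome 14, 47276931 to 47296102, plus strand) stood at 2112 normalized counts in the control library, 1508 in the shRNA 1-labelled library and 1684 in the shRNA 2-labelled library. The control was again the highest, and the log2 differences were -0.49 and -0.33. Their mean was -0.41 (SE 0.16, 95% interval -0.84 to 0.03), with an adjusted p of 0.73 in limma. Socs5 (ENSMUSG00000037104.9, chromosome 17, 87107679 to 87137839, plus strand) had 1319.7, 1857 and 1437 in the same order. Its differences were 0.49 and 0.12, with a mean of 0.31 (SE 0.22), and limma gave an adjusted p of 0.82. Egfr was listed at 0 to 1.93 normalized counts in these cells.

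Socs6 and Socs7, linked to insulin receptor and KIT signalling, each lay within 0.28 of the control on the log2 scale in both GIV-labelled libraries. Socs6 (ENSMUSG00000056153.15, chromosome 18, 88665224 to 88927481, minus strand) stood at 1533 normalized counts in the control library, 1861 in the shRNA 1-labelled library and 1462 in the shRNA 2-labelled library. Socs7 (ENSMUSG00000038485.6, chromosome 11, 97362551 to 97398542, plus strand) had 2533, 2875 and 2269.8. For both genes the shRNA 1-labelled library was the highest and the shRNA 2-labelled one the lowest. Mean log2 differences were 0.11 (SE 0.21, 95% interval -0.47 to 0.68) for Socs6 and 0.01 (SE 0.20, 95% interval -0.54 to 0.56) for Socs7, and the sign of both turned after removal of the trend with GC content and length.

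**Figure D2:**
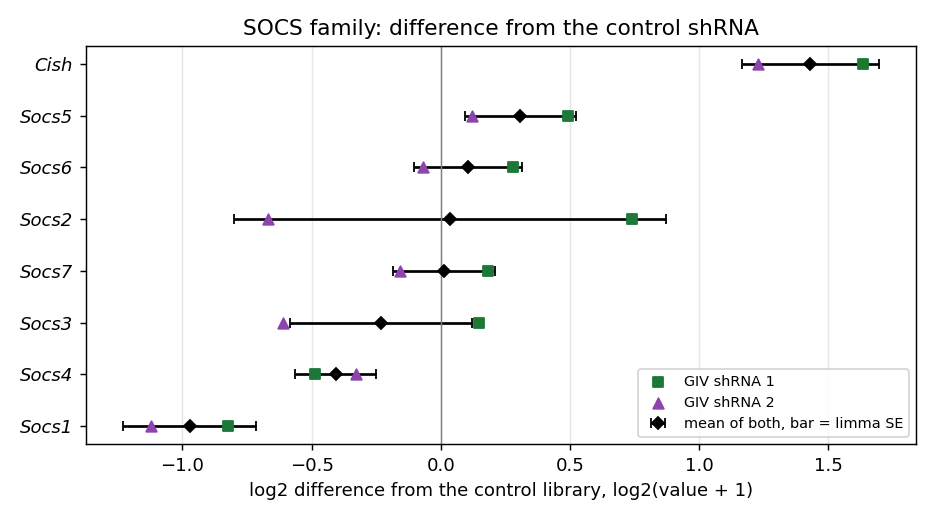
Log2 difference of each member from the control library on the log2(value + 1) scale, for the shRNA 1-labelled library (square), the shRNA 2-labelled library (triangle) and their mean (diamond, bar = limma SE). Cish and Socs1 lie farthest from 0, at means of 1.43 and -0.97, and the points of Socs2, Socs3, Socs6 and Socs7 straddle 0.

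Across the family, 2 of 8 members were higher in both GIV-labelled libraries than in the control, Cish and Socs5, against 34.9% of all features tested. Lower in both were 2 of 8, Socs1 and Socs4, against 35.2%. The other 4 members lay on opposite sides of the control, against 29.7% of all features. The first 2 shares are below the background and the third is above it, none of them was tested, and both differences share the control library. The median log2 difference over the members was 0.02, beside -0.00147 over all features. It was 0.23 for the shRNA 1-labelled library and -0.24 for the shRNA 2-labelled one.

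By a rule of at least 1.5-fold between single libraries, Cish and Socs2 were higher in the shRNA 1-labelled library than in the control (2 of 8, against 8.83% of features) and Socs1 was lower (1 of 8, against 7.85%). In the shRNA 2-labelled library, Cish was higher (1 of 8, against 9.99%), and Socs1, Socs2 and Socs3 were lower (3 of 8, against 7.19%). Between the 2 GIV-labelled libraries, Socs2 and Socs3 differed by at least 1.5-fold (2 of 8, against 15.5%). Cish and Socs1 were thus past 1.5-fold against the control in both libraries, and the share of features past it in both was not counted. The smaller of the 2 differences was matched or exceeded on the same side by 1.70% of features for Cish. For Socs1 that share was 1.51%. Both differences share the control library. Single libraries allow no test, and Socs2 rests on few reads.

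**Figure D3:**
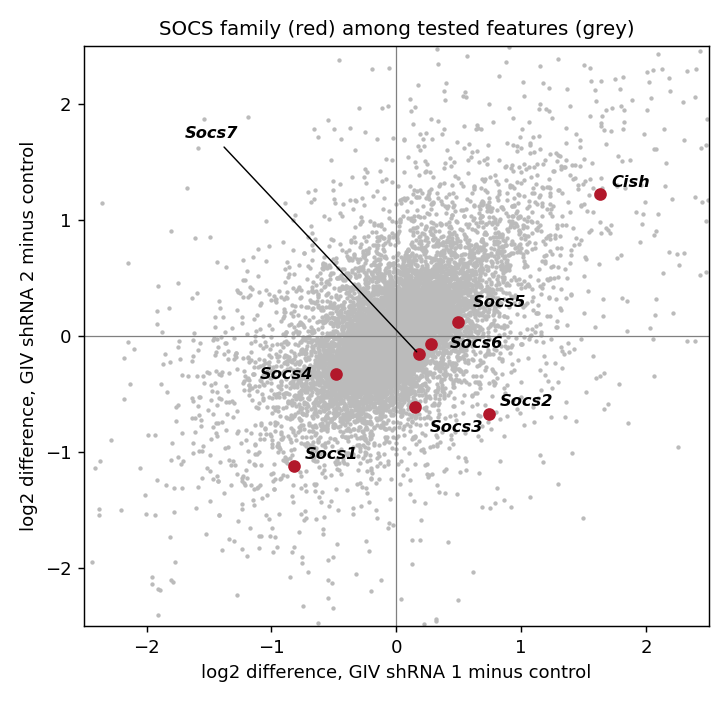
Log2 difference from the control in the shRNA 1-labelled library (x) and in the shRNA 2-labelled one (y) for the tested features (grey) and the SOCS family (red), with 279 features outside the axes at 2.5. Both axes share the control library; Cish lies in the upper right at 1.63 and 1.23 and Socs1 in the lower left at -0.82 and -1.12.

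Ratios between members within a library, taken as log2 of (value + 1) over (value + 1), do not depend on a scaling factor of that library beyond the added 1. Among the 28 pairs, Cish to Socs1 had the widest range. Its log2 ratio was -1.07 in the control, 1.39 in the shRNA 1-labelled library and 1.28 in the shRNA 2-labelled library. Relative to the control it was 2.40 ± 0.08 higher (SD, n = 2). That SD is the spread of the GIV-labelled libraries only and holds no error of the single control. The ratio restates the opposite differences of Cish and Socs1 given above. Socs6 to Socs7 had the narrowest range, with -0.72, -0.63 and -0.63. Cish to Socs2 had 4.49, 5.39 and 6.39, which rests on the few reads of Socs2 (9.93, 17.3 and 5.88 normalized counts). Socs1 to Socs3 was highest in the control, with -6.44, -7.42 and -6.95, although Socs3 alone lay on either side of the control. Socs4 to Socs5 was also highest in the control, with 0.68, -0.30 and 0.23. These ratios are of normalized counts, not per length, so only their differences between libraries are compared.

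**Figure D4:**
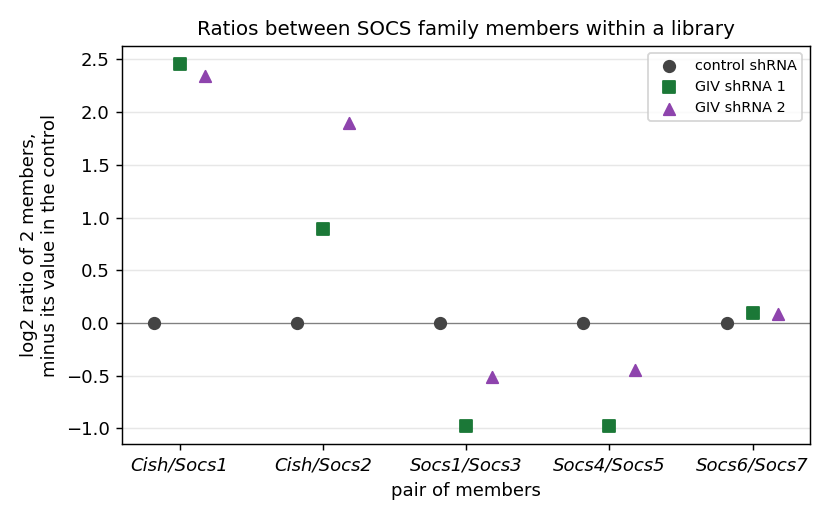
Log2 ratio of 2 members within each library, minus the same ratio in the control, for Cish to Socs1 and for 4 pairs of close relatives, 1 point per library. The ratio of Cish to Socs1 is 2.46 and 2.35 above the control, whereas that of Socs6 to Socs7 is within 0.10 of it.

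The members also differ in their annotated transcripts. In the principal transcript 2 exons were annotated for Socs1, Socs3 and Socs4, 3 for Cish, Socs2, Socs5 and Socs6, and 10 for Socs7. The coding length without the stop codon ran from 594 bases for Socs2 to 1737 for Socs7, with Cish at 771, Socs1 at 636 and Socs3 at 675. The pentamer ATTTA, the core of AU-rich elements known from unstable cytokine mRNAs, was counted on the transcript strand in the 3′ UTR. It occurred 3 times in Cish, 4 times in Socs3 and 17 times in Socs4, and 0 times in the 1993 bases of Socs1. Per kb this was 2.76 for Cish, 2.71 for Socs3 and 3.28 for Socs4, beside a median of 1.31 over 11400 tested protein-coding genes, of which 67.8% held at least 1. As many per kb were held by 23.4% of these genes for Cish, 24.0% for Socs3 and 17.4% for Socs4. Socs6 had 2.49 per kb, Socs2 1.72 and Socs5 1.54, and Socs7, at 0.965, was below the median. Socs1 and Socs3 had the highest GC content of the longest transcripts, 58.8% and 58.7%, and Socs4 the lowest, 38.5%.

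Among upstream ligands the values were mostly higher in the GIV-labelled libraries. Of 29 ligands of JAK-coupled receptors 16 were tested, 9 were above the control in both libraries and 3 below it in both, with a median log2 difference of 0.23. For this and each later list, the shares over all features tested were 34.9% above the control in both libraries and 35.2% below it in both. Among the ligands above the control in both, Clcf1, Il12b and Il23a had at most 28.8 normalized counts in any library. Csf2, which encodes GM-CSF, a STAT5-activating cytokine, had 166, 714 and 899 normalized counts. These and all later triplets are in the order control, shRNA 1-labelled library, shRNA 2-labelled library. Il6, a gp130 cytokine, had 1957, 6114 and 8985. Ifnb1, which encodes interferon beta, had 620, 1338 and 1385. Lif, another gp130 cytokine, had 3760, 13544 and 4637, high in a single library. Il10 was among the 3 ligands below the control in both libraries. Socs3 stood above the control in 1 of the libraries and Socs1 in none, and no link between ligands and members was tested. None of these ligands passed the adjusted threshold in limma, the lowest being 0.20 for Csf2.

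Receptors showed the other balance. Of 34 JAK-coupled receptor genes 24 were tested, 3 were above the control in both libraries and 12 below it in both, with a median of -0.19. Csf2ra, the ligand-binding GM-CSF receptor subunit, had 6887, 4564 and 3603 normalized counts. The receptor subunits Il4ra and Il6ra had 1869 and 4410.0 in the control, 1118 and 2684 in the shRNA 1-labelled library, and 1246 and 3562 in the shRNA 2-labelled library. Il21r went the other way from a low level, with 23.5, 53.0 and 80.1. Il6st, which encodes gp130, had 2351, 2408 and 2334.

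The kinases and transcription factors that carry the signal came next in the pathway. Of 10 tested JAK and STAT genes 2 were above the control in both libraries and 5 below it in both, with a median of -0.13. Jak3 had 1336, 802 and 900.8 normalized counts, a mean difference of -0.65 (SE 0.18), and Jak1 had 8396, 10732 and 10398. Tyk2 and Stat2 differed by -0.24 and -0.29. Stat5a, which acts upstream of Cish, had 3369, 3474 and 2636, and Stat5b had 1002, 874 and 981. Of the 8 partners of the SOCS box, 3 were above the control in both libraries and 3 below it in both, with a median of -0.03. The largest difference there was 0.40 (SE 0.19) for Cul5, the cullin of the ligase, with 2417, 3579 and 2856. The elongins Elob and Eloc differed by -0.19 and -0.14 and the cullin modifier Nedd8 by -0.12.

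Other inhibitors of the pathway lay on both sides of the control. Of 14 tested genes, 8 were above the control in both libraries and 4 below it in both, with a median of 0.09. Cbl, a ubiquitin ligase, had 4940.4, 7328 and 7133 normalized counts, a mean difference of 0.55 (SE 0.12), and its relative Cblb had 289, 373 and 343. Usp18, an inhibitor of interferon receptor signalling, had 59619, 57047 and 44612. The phosphatase Ptprc had 14039, 16968 and 14590.1. Of 13 receptor kinases and adaptors known to bind SOCS proteins 6 were tested, with 4 higher in both libraries, 1 lower in both and a median of 0.27. Ptk2, focal adhesion kinase, had 4190.0, 6887 and 7730.2 and Insr 397, 510.2 and 543. The M-CSF receptor gene Csf1r stood at 18776, 9476 and 15612. The TLR adaptor Tirap, a known target of SOCS1, had 1608, 1682 and 1851.

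Cish, Socs2 and Socs3 are themselves in lists of STAT-responsive genes, and differences between lists were not tested. Of 11 STAT5-responsive genes, Cish and Socs2 included, 6 were above the control in both libraries and 3 below it in both, with a median of 0.22. Cish, Lif and Osm are among those 6, and Lif and Osm were also counted with the ligands above. Ccnd2, which encodes cyclin D2, had 329, 2864 and 1214 normalized counts, a larger difference than that of Cish, whereas Id1 had 2694, 1455 and 1282. Of 10 STAT3-responsive genes, Socs3 included, 2 were higher in both and 6 lower in both, with a median of -0.21. Il21r and Il4ra, given above, had the largest differences of that list, and Junb and Sbno2 both differed by -0.49. None of the genes in these 9 lists passed the adjusted threshold in limma, where the count per list at an unadjusted p under 0.05 ran from 0 of the 8 SOCS-box partners to 6 of the 16 tested ligands, beside 963 of all 13877 features, and the lists were chosen with earlier results known.

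**Figure D5:**
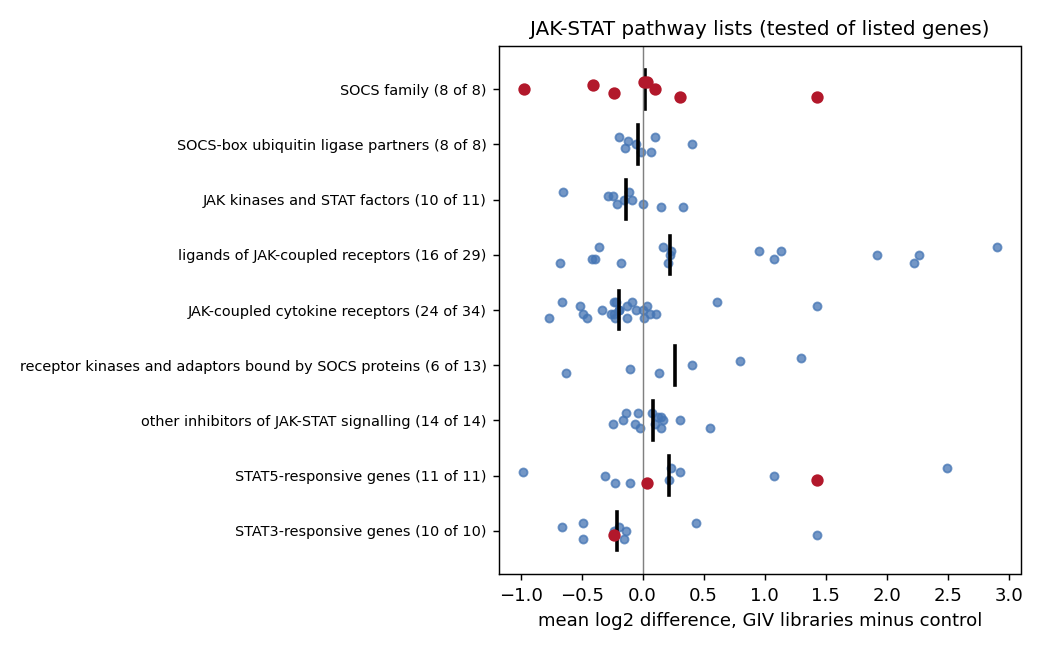
Mean log2 difference from the control of each tested gene in 9 lists, SOCS family members in red, with the median of each list as a black bar. Medians run from -0.21 for STAT3-responsive genes to 0.27 for receptor kinases and adaptors, beside -0.00147 over all features tested.

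Likeness to a member was measured as the distance between the 2 log2 differences from the control, over 92 other genes of the lists whose mean value reached 50. The nearest to Cish were Ifnb1 (0.53), Il21r (0.70) and Lif (0.95). For Socs1 they were Id1 (0.08), Csf2ra (0.30) and Il10 (0.41), and Il10 had 8907, 6047 and 5109 normalized counts. For Socs3 they were Csf2rb2 (0.22), Il7 (0.25) and Il27 (0.27), and for Socs2 Tslp (0.26), Il7 (0.62) and Bcl2l1 (0.76). The distance rests on 3 libraries. Among 11417 features outside the family at the same minimum, 41 lay as near to Cish as Ifnb1, 102 as Il21r and 218 as Lif. Lif differed by 1.85 and 0.30, so it was near Cish in the shRNA 1-labelled library only. As near to Socs1 as Id1 were 4, as Csf2ra 38 and as Il10 79. As near to Socs3 as Csf2rb2 were 134, as Il7 165 and as Il27 206. As near to Socs2 as Tslp were 12, as Il7 197 and as Bcl2l1 608.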

How the data were processed

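RNA was sequenced from stranded mRNA libraries, per the labels' protocols. The deposited table holds normalized counts made by the authors, 1 column per library, and was read as a non-negative signal. Per the submitters' processing notes, which give no roles, Salmon, DESeq and DESeq2 were used, with GRCm38. The authors' annotation is not given in the sources used. No column was left out. As the values do not come in whole reads, count models were not used, and no counting intervals are given. Identifiers were matched without version to GENCODE M21 (GRCm38), which named 54097 of 54331, and promoter sequences came from RefSeq. Length for levels per kb was the union of annotated exons.

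The 13877 features with a mean of at least 10 were put on the log2(value + 1) scale, which understates differences of low genes. The two-sided test was limma's (version 3.58.1, R 4.3.3; lmFit, then eBayes allowing a trend of variance with level), and Benjamini-Hochberg adjustment ran over all of them. The fit has 1 residual degree of freedom, and it takes the single control to vary as the pair of GIV-labelled libraries. Nothing says that the libraries came from separate cultures, so the spread behind the p-values is that between these libraries and may be technical. Named by rule were the members, Ccdc88a, and the 3 nearest genes to Cish, Socs1, Socs2 and Socs3. The rule also took up to 4 genes per list with the largest difference at a mean of at least 50. Others (Egfr, Ghr, Il6st, Stat5a, Stat5b) and cell type markers outside the rule were named with their values in view. Members and lists were chosen with earlier results of these data known. Some of the results on these lists are not reported here.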

Additional observations from a re-analysis of the deposited data

Results flagged for a closer look

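In 4 members the GIV-labelled libraries lay on opposite sides of the control, which is 1 library per shRNA and was not tested. Written as shRNA 2 minus shRNA 1, the log2 difference was -1.41 for Socs2, with 17.3 and 5.88 normalized counts in the shRNA 1- and shRNA 2-labelled libraries. It was -0.76 for Socs3, with 49717 and 29363. For Socs6 it was -0.35, and for Socs7 it was -0.34. In each of the 4 the shRNA 1-labelled library was the higher one. That is not particular to them, as the same difference was -0.41 for Cish, -0.30 for Socs1 and -0.37 for Socs5. Socs4 went the other way, at 0.16. No share over all features is given for this direction, so it cannot be read as a trait of the family.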

How the results depend on the processing

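Cish stayed higher and Socs1 lower under all 9 alternatives that keep the 3 libraries (pseudocount, filter, scaling, quantile normalization, variance trend, GC and length trend), with mean log2 differences of 1.39 to 1.45 and -1.01 to -0.89, and adjusted p in limma of 0.35 to 0.59 and 0.45 to 0.67. No member was called under any of them. Over all features 1 was called instead of 0 at a minimum mean of 50, with equal totals, and after removal of the trend with GC content and length, an alternative added after the data were seen. With that trend removed the mean difference turned to -0.058 for Socs2, -0.062 for Socs6 and -0.10 for Socs7. With quantile normalization it turned to -0.39 for Socs2 and -0.018 for Socs7. Leaving out 1 GIV-labelled library, so that values have no test, gave 1.23 to 1.63 for Cish, -1.12 to -0.82 for Socs1, -0.67 to 0.74 for Socs2, -0.61 to 0.15 for Socs3, -0.49 to -0.33 for Socs4, 0.12 to 0.49 for Socs5, -0.068 to 0.28 for Socs6 and -0.16 to 0.18 for Socs7. The lone control could not be left out, and counts over both libraries have no value with 1 left out. Socs2 did not pass a minimum mean of 50. Scaling by the median of ratios changed nothing, as its factors were 1. No scaling moved the median of all features by over 0.1. No paired analysis was possible because the control is a single library.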

Other observations

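Several known partners of SOCS proteins were listed at 0 in all 3 libraries, namely the insulin receptor substrates Irs1 and Irs2, the receptor Igf1r and the receptor kinase Flt3. Kit, a receptor bound by SOCS6, stood at 0.551 normalized counts in the control library, 1.13 in the shRNA 1-labelled library and 24.2 in the shRNA 2-labelled library, high in a single library. Met had 6.38, 9.70 and 29.9. Stat4, the STAT factor of IL-12 signalling, was listed at 4.66 in the control and at 0 elsewhere. Clcf1, a gp130 ligand under the mean of 50 used for naming genes, had 3.76, 24.0 and 18.9, and Il12b had 1.87, 14.5 and 28.8. These genes were named after their values were seen, and at such levels 1 unit stands for about 1 read.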
